A study of Mus musculus with 9 samples.

Results

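The peroxisome proliferator-activated receptors (PPARs), their retinoid X receptor (RXR) partners and 4 of their lipid-handling target genes were followed in OSCAR-overexpressing articular chondrocytes with and without 5-ASA. The 9 genes were chosen by name and found by their Ensembl identifiers among the 55471 genes of the deposited files. They are the receptors Pparg, Ppara and Ppard, the partners Rxra and Rxrb, and the targets Angptl4, Pdk4, Plin2 and Cpt1a. All 9 passed the filter on low counts that left 15362 genes for testing. In GRCm38 the receptors and the partners lie on the plus strand, Pparg (ENSMUSG00000000440.12) at chr6:115360951-115490399, Ppara (ENSMUSG00000022383.13) at chr15:85734983-85802819, Ppard (ENSMUSG00000002250.16) at chr17:28232700-28301474, Rxra (ENSMUSG00000015846.15) at chr2:27676440-27762957 and Rxrb (ENSMUSG00000039656.17) at chr17:34031812-34038399. Angptl4 (ENSMUSG00000002289.16) lies at chr17:33773750-33781830, Pdk4 (ENSMUSG00000019577.6) at chr6:5483351-5496309 and Plin2 (ENSMUSG00000028494.12) at chr4:86648386-86670060, all on the minus strand, and Cpt1a (ENSMUSG00000024900.5) at chr19:3322334-3385733 on the plus strand.

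RNA came from 9 cultures of primary chondrocytes taken from the knee cartilage of wild-type mice at postnatal day 5, in 3 groups of 3. Ad-Control cells received a control adenovirus, Ad-OSCAR cells a virus that makes them express OSCAR (a collagen receptor), and Ad-OSCAR+5-ASA cells the OSCAR virus followed by 5-aminosalicylic acid at 10 µM. All cells were grown on plates coated with COLpep, a collagen peptide that OSCAR binds, and IL-1β was not added. The study's methods give 2 days of culture, 800 MOI for 2 h and 24 h with or without 5-ASA, whereas the sample annotations give 3 days, 400 MOI and 36 h between infection and drug. Among these samples none received 5-ASA without Ad-OSCAR, so 5-ASA was measured only in OSCAR-overexpressing cells. The annotations do not say whether the 3 cultures of a group came from separate animals, so the p-values measure the spread between these cultures, which may be technical.

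PPARs are nuclear receptors that bind fatty acids and their derivatives, pair with an RXR and sit on DNA at repeats of the hexamer AGGTCA. PPARγ is best known as the driver of fat cell formation and lipid storage and as the receptor of the glitazone drugs, whereas PPARα and PPARδ are best known for switching on fatty acid oxidation. 5-ASA is known as a ligand of PPARγ in the colon. Activated PPARs are known to raise transcripts of the 4 targets, and the question put to these data was whether the targets moved in that direction with 5-ASA.

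Oscar itself had 3 to 4 counts per Ad-Control culture. Each Ad-OSCAR culture had 173445 to 187278, and each treated culture 80766 to 94199. Oscar fell by 0.97 (SE 0.06) on the log2 scale with 5-ASA (adjusted p = 1.76e-08), so each 5-ASA result below comes from cells with less Oscar RNA as well as drug, and the part of that fall in the results was not tested. The summed level of 10 chondrocyte markers was 38158 to 43763 CPM (counts scaled to library size by TMM) in Ad-Control cells. It was 3259 to 3593 CPM with OSCAR alone and 3658 to 4048 CPM with OSCAR and 5-ASA. Most of this sum was Col2a1 (33857 CPM in Ad-Control and 2159 CPM in Ad-OSCAR cells), and of the 10 markers 9 fell with OSCAR and Prg4 rose from 247 to 897 CPM. Of 8 adipocyte markers, Adipoq, Cidec, Lep, Retn and Cfd had at most 3 counts in every culture, and the list's sum of 11.2 to 15.2 CPM in Ad-Control, 28.6 to 31.9 CPM in Ad-OSCAR and 27.3 to 31.6 CPM with 5-ASA was nearly all Fabp4. Of 8 macrophage markers, Adgre1, Ptprc, Itgam and C1qa had at most 3 counts in every culture, and the list summed to 15.6 to 18.3 CPM in Ad-Control, 35.5 to 36.2 CPM in Ad-OSCAR and 29.3 to 30.6 CPM with 5-ASA. Of the 4 macrophage markers tested, 3 rose with OSCAR and 2 fell with 5-ASA. Cd14 went from 10.6 to 22.2 and 18.2 CPM over the 3 groups, and Cd68 from 1.99 to 8.21 and 6.3 CPM. The sum of 8 fibroblast markers, mostly Fn1, was 51529 to 52401, 50505 to 53088 and 54435 to 58983 CPM in the same order, while 3 of them rose and 5 fell with OSCAR (Dcn from 1639 to 3521 CPM, Col1a1 from 9195 to 2895 CPM) and 6 rose with 5-ASA. Osteoclast markers other than Oscar summed to 16.1 to 18.6 CPM over all cultures, and endothelial markers to at most 2.80 CPM. With OSCAR Ctsk rose from 5.32 to 8 CPM and Calcr from 0.0744 to 0.724 CPM, while Acp5 fell from 12.6 to 8.22 CPM. Tek, most of the endothelial sum, went from 0.598 to 2.22 and 1.38 CPM over the 3 groups. Of all genes tested, 32.7% rose and 32.2% fell with OSCAR, and 10.4% rose and 7.38% fell with 5-ASA (edgeR, adjusted p below 0.05). The part of these cell type markers in the results was not tested. In such bulk samples, fewer cells of a type and less RNA per cell cannot be told apart.

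Promoter sequences are shown for the 3 targets with a RefSeq entry and for the internal start of Pparg, because the targets rose together with OSCAR while the receptor fell. RefSeq windows of 250 bases before to 50 bases after the start site (GRCm38.p6) were found for 8 of the 9 genes, 12 windows in all. Angptl4 had no entry. Printed below, 5′ to 3′ on the gene's own strand, is the longest run of the 250 upstream bases that no annotated exon covers, and capitals mark AGGTCA or its complement TGACCT.
Plin2, chr4:86670061-86670309, minus strand: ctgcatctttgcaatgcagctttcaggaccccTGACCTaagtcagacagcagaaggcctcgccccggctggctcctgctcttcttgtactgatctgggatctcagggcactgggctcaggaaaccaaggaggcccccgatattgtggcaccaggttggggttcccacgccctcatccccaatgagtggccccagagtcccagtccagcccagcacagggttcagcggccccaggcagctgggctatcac
Cpt1a, chr19:3323051-3323284, plus strand: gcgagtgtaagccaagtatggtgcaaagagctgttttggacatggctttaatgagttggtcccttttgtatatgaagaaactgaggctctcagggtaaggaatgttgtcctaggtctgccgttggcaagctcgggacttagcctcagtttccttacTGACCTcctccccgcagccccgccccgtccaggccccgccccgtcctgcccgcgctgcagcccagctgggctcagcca
Pdk4, chr6:5496310-5496528, minus strand: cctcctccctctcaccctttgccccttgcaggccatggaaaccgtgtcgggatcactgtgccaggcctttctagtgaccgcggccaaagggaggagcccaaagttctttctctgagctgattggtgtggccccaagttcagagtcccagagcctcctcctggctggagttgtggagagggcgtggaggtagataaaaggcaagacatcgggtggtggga
Pparg, chr6:115421816-115422065, plus strand: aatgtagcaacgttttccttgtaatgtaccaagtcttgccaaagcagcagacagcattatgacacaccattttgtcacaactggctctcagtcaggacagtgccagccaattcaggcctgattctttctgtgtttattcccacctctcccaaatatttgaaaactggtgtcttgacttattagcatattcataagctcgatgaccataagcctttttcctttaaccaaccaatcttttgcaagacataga

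The hexamer stood on the other strand of Plin2 at -218 to -213 and of Cpt1a at -94 to -89, counted with the start site as 0. It was not in these letters of Pdk4 or of the internal start of Pparg, which is the third of 3 RefSeq starts of that gene. The windows of the other two Pparg starts each held it on the gene's own strand, at -28 to -23 and at -9 to -4. AGGTCA on either strand was in 5 of the 12 windows of these genes and in 16.3% of all 32851 windows of the same length. The full repeat AGGTCANAGGTCA, also searched on both strands and overlapping with the hexamer, was in 0 of the 12 windows and in 0.0396% of all windows. A match or its lack in a window this short describes the letters and not the binding of a receptor.

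The levels of the 9 genes were first compared as TPM, a level scaled to transcript length and library total. Angptl4 was the highest of the 9 in each group, with 101 ± 3.72 TPM in Ad-Control, 193 ± 10.3 in Ad-OSCAR and 235 ± 11.7 with 5-ASA (SD, n = 3). Ppara was the lowest, with 0.707 ± 0.124, 0.6 ± 0.255 and 1.03 ± 0.255 TPM. In Ad-Control cells Ppard (39.1 TPM), Plin2 (38.4 TPM) and Rxra (38.3 TPM) followed Angptl4 with overlapping cultures, then came Rxrb (36.1 TPM), Cpt1a (19.0 TPM), Pparg (4.53 TPM) and Pdk4 (2.01 TPM), none of which overlapped with its neighbour in the order. In Ad-OSCAR cells Plin2 took the second place at 109 TPM, above Ppard (43.5 TPM), Rxrb (43.4 TPM), Rxra (34.1 TPM) and Cpt1a (32.1 TPM). Among these, Ppard overlapped with Rxrb and Rxra with Cpt1a. Pdk4 (3.25 TPM) and Pparg (2.64 TPM) overlapped there too. With 5-ASA the order below Angptl4 and Plin2 (86.4 TPM) was Rxrb (38.2 TPM), Ppard (36.2 TPM), Rxra (30.9 TPM) and Cpt1a (26.2 TPM), each overlapping with the next, and then Pdk4 (3.06 TPM) and Pparg (2.95 TPM), which overlapped as well.

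**Figure D1:**
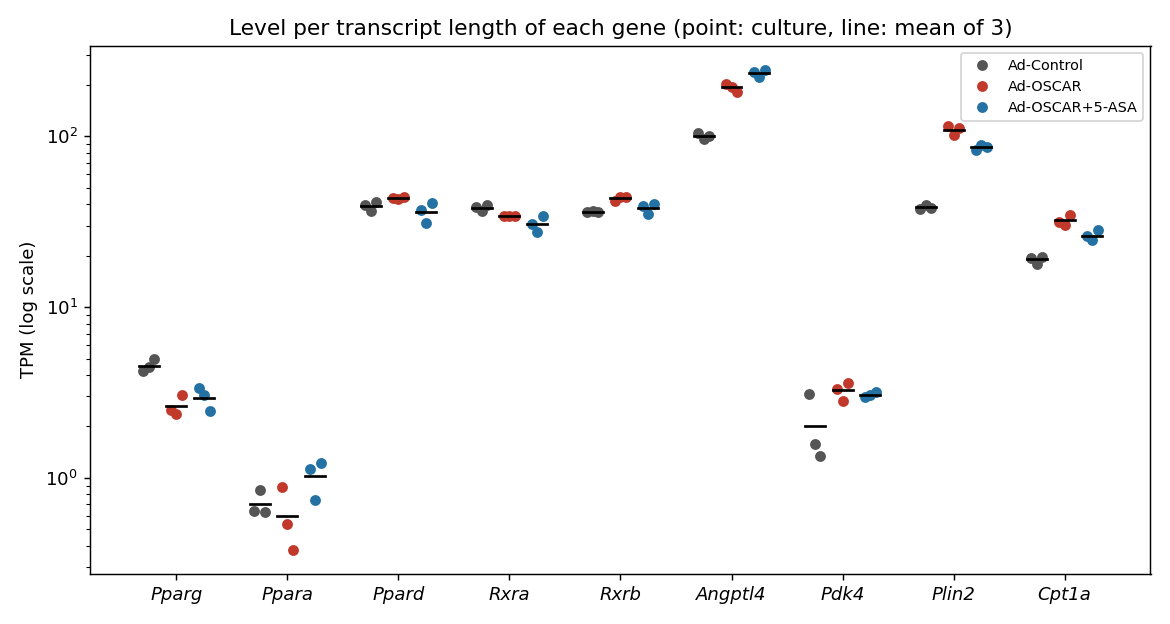
TPM of the 9 genes on a log axis, with a point for each of the 3 cultures of a group and a line at the group mean. Angptl4 lies highest in every group and Ppara lowest, and the Ad-Control culture of Pdk4 at 3.09 TPM stands above the other two at 1.59 and 1.35 TPM.

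Ppard made up most of the PPAR transcripts. Its share of the summed TPM of the 3 receptors was between 87.4% and 93.6% in all 9 cultures. Pparg held 10.2% ± 0.664 of it in Ad-Control, 5.64% ± 0.633 in Ad-OSCAR and 7.46% ± 1.68 with 5-ASA (SD, n = 3), and the last ranged from 5.56% to 8.78%. The exact two-sided permutation p for this share was 0.1 for OSCAR, 0.2 for 5-ASA and 0.1 for treated against Ad-Control cells, where 0.1 is the smallest that 3 against 3 cultures allow.

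In the comparison of Ad-OSCAR with Ad-Control, 5 of the 9 genes rose, 2 fell and 2 did not pass the test. Of all genes tested, 65.0% passed it (adjusted p below 0.05), 32.7% upward and 32.2% downward, so a count of 7 in 9 is close to what this comparison gives in general. The cultures of both groups did not overlap for 7 of the 9 genes, as for 69.0% of all genes, and none of the 9 passed the study's limits for OSCAR (a log2 fold change past 1.5 and an adjusted p below 0.05), which 9.96% of all genes did. Plin2 lay near the limit at 1.47, and it was at 1.45 to 1.51 over 17 alternative ways of processing, so it passed in some. The 4 targets all rose, Pparg fell, and the RXR partners moved a little in opposite directions. The median log2 fold change was 0.20 over the 9 genes and 0.02 over all genes.

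In the comparison of 5-ASA-treated with untreated Ad-OSCAR cells, 1 gene rose, 2 fell and 6 did not pass the test, against 17.8% of all genes that passed it, 10.4% upward and 7.38% downward. Angptl4 rose, and Plin2 and Cpt1a fell. The cultures did not overlap for 4 of the 9 genes, as for 33.8% of all genes. The median was -0.05 over the 9 genes and 0.00 over all genes. None of the 9 differed by more than 1.5-fold with an unadjusted p below 0.05, as 4.15% of all genes did. The study's methods set these limits for treated cells against Ad-Control, where 3 of the 9 passed them (Angptl4, Pdk4 and Plin2) and 29.9% of all genes did. That count depended on the processing. Cpt1a was just short at 1.49-fold (log2 0.58) and reached 0.61 with a culture left out. Pdk4 was short of the fold limit on the TPM scale with a pseudocount of 1 (log2 0.48). Both comparisons share the Ad-OSCAR cultures, so their values are set side by side and not correlated.

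**Figure D2:**
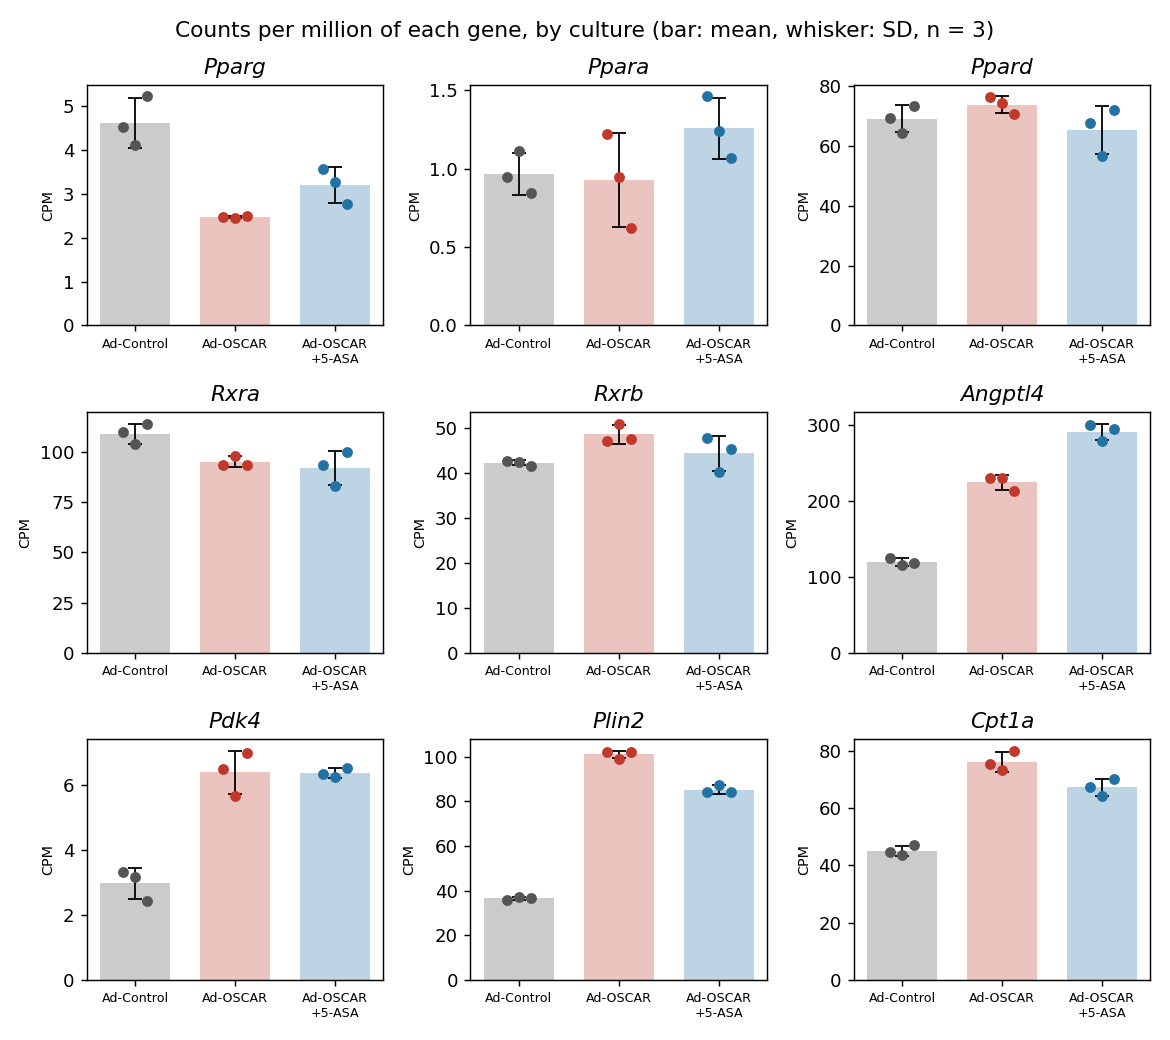
CPM of each gene in each culture, with the group mean as a bar from 0 and the SD as a whisker (n = 3). The targets stand higher in Ad-OSCAR than in Ad-Control cultures, Pparg stands lower, and with 5-ASA Angptl4 stands above both other groups.

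Pparg fell with OSCAR. The 3 Ad-Control cultures had 4.53, 4.11 and 5.23 CPM, the Ad-OSCAR cultures 2.48, 2.46 and 2.51 CPM, and the treated cultures 3.58, 3.28 and 2.77 CPM. The 3 groups did not overlap, with the treated cultures between the other two groups. These rest on few reads: 96 to 100 counts per Ad-Control culture, 60 to 73 per Ad-OSCAR culture and 70 to 93 per treated culture. The log2 fold change with OSCAR was -0.89 (SE 0.15, 95% confidence interval -1.20 to -0.57, adjusted p = 4.27e-05), which put Ad-OSCAR cells at 0.540 of the Ad-Control level.

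With 5-ASA the log2 fold change of Pparg was 0.37 (SE 0.15, interval 0.05 to 0.69). The unadjusted p was 0.026 and the adjusted p 0.106, so the difference did not pass the test, and the interval reaches from a 1.04-fold to a 1.62-fold higher level. On the TPM scale the groups did overlap, at 2.38 to 3.04 in untreated and 2.46 to 3.34 in treated cells. The Ad-OSCAR culture at 3.04 TPM had an estimated transcript length of 1594.35 bases, the shortest of the 9 for this gene. Treated cells stayed below Ad-Control, by -0.52 on the log2 scale (SE 0.14, adjusted p = 0.00457). Pparg overlaps the antisense gene Gm44079 outside its exons, and no other of the 9 genes overlaps an annotated gene.

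Ppara, the receptor best known from liver, was close to the limit of measurement. It had 16 to 27 counts per Ad-Control culture, 17 to 36 per Ad-OSCAR culture and 27 to 38 per treated culture, and all groups overlapped. Its log2 fold change was -0.06 with OSCAR (interval -0.67 to 0.55, adjusted p = 0.86) and 0.43 with 5-ASA (interval -0.14 to 1.00, adjusted p = 0.309), so changes within these wide intervals were not detectable at this depth. Ppard, the broadly expressed member of the family, had 69.4, 64.4 and 73.4 CPM in Ad-Control, 76.2, 74.3 and 70.7 CPM in Ad-OSCAR and 67.5, 56.5 and 71.9 CPM in treated cultures. Its groups overlapped. The log2 fold change of Ppard was 0.10 with OSCAR (interval -0.05 to 0.25, adjusted p = 0.247) and -0.18 with 5-ASA (interval -0.33 to -0.03, adjusted p = 0.0971). Whether Ppard passed the test with 5-ASA depended on the cultures and the filter. Without the third treated culture the value was -0.25 and passed the test (adjusted p = 0.0267). With no filter on low counts it was -0.18 and also passed (adjusted p = 0.0155). As each culture was left out the value ranged from -0.25 to -0.08, and the second treated culture, at 56.5 CPM, was the lowest.

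The RXR partners changed by small amounts. Rxra had 110, 104 and 114 CPM in Ad-Control and 93.9, 98.4 and 93.8 CPM in Ad-OSCAR cultures, which did not overlap, and 93.5, 83.2 and 100 CPM in treated cultures. It fell by 0.20 on the log2 scale with OSCAR (SE 0.06, adjusted p = 0.0071), a call not made on the TPM scale (adjusted p = 0.0845 and 0.0840 with pseudocounts of 0.1 and 1). Rxrb had 42.8, 42.5 and 41.7 CPM in Ad-Control, 47.3, 51.1 and 47.6 CPM in Ad-OSCAR and 47.8, 40.2 and 45.5 CPM in treated cultures, and it rose by 0.20 with OSCAR (SE 0.06, adjusted p = 0.0069). The share of Rxra in the summed RXR TPM was 51.3% ± 1.10 in Ad-Control, 44.0% ± 0.646 in Ad-OSCAR and 44.6% ± 1.12 in treated cells (SD, n = 3). Rxrg had 0 to 4 counts per culture. With 5-ASA the log2 fold changes were -0.05 for Rxra (interval -0.17 to 0.08) and -0.13 for Rxrb (interval -0.25 to -0.01), neither past the test (adjusted p = 0.665 and 0.143).

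Angptl4 encodes a secreted protein that inhibits lipoprotein lipase and is a common readout of PPAR activation. It had 125, 115 and 118 CPM in Ad-Control, 231, 230 and 213 CPM in Ad-OSCAR and 300, 279 and 295 CPM in treated cultures. No group overlapped with another, and the levels went up at each step. The log2 fold change was 0.92 with OSCAR (SE 0.05, interval 0.81 to 1.02, adjusted p = 1.24e-11) and a further 0.37 with 5-ASA (SE 0.05, interval 0.27 to 0.48, adjusted p = 2.74e-05). Treated cells thus had 2.44-fold the level of Ad-Control cells (log2 1.29, adjusted p = 1.1e-13). Among the 9 genes Angptl4 was the only gene called up with 5-ASA, and its rise added to the rise with OSCAR.

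Plin2 encodes the protein coat of lipid droplets in cells other than adipocytes. It had 35.9, 36.9 and 36.8 CPM in Ad-Control, 102, 99.1 and 102 CPM in Ad-OSCAR and 84.2, 87.5 and 84.1 CPM in treated cultures. The groups did not overlap, and the treated cultures lay between the other two groups, nearer to Ad-OSCAR. Plin2 rose 2.76-fold with OSCAR (log2 1.47, SE 0.05, adjusted p = 4.91e-15), the largest change of the 9 genes in this comparison. It fell by 0.24 on the log2 scale with 5-ASA (SE 0.04, interval -0.33 to -0.15, adjusted p = 0.000539).

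Cpt1a encodes the enzyme that commits long-chain fatty acids to import into mitochondria. Its values were 44.6, 43.5 and 47.0 CPM in Ad-Control, 75.2, 73.3 and 80.0 CPM in Ad-OSCAR and 67.3, 64.2 and 70.2 CPM in treated cultures. The groups were again apart in the same order as for Plin2. Cpt1a rose by 0.76 with OSCAR (SE 0.05, adjusted p = 4.11e-10) and fell by 0.18 with 5-ASA (SE 0.05, interval -0.29 to -0.07, adjusted p = 0.0176). The fall did not pass the test without the third Ad-OSCAR culture (adjusted p = 0.0816) or without the first or second treated culture (0.0644 and 0.0754).

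Pdk4 encodes a kinase that shuts off pyruvate dehydrogenase and so spares glucose when fat is burned. It had 3.30, 3.16 and 2.43 CPM in Ad-Control, 6.48, 5.66 and 6.98 CPM in Ad-OSCAR and 6.31, 6.24 and 6.52 CPM in treated cultures. All OSCAR-expressing cultures stood above all Ad-Control cultures, and the treated cultures lay within the range of the untreated. The log2 fold change was 1.10 with OSCAR (SE 0.13, adjusted p = 9.68e-07) and -0.01 with 5-ASA (interval -0.25 to 0.24, adjusted p = 0.976). On the TPM scale with a pseudocount of 1 the OSCAR value was 0.54 (adjusted p = 0.0256). The first Ad-Control culture had 3.09 TPM from 70 counts with an estimated transcript length of 1949.03 bases, against 3145.20 to 3484.00 in the other 8 cultures.

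Set against the direction known for an activated PPAR, the 4 targets all moved that way with OSCAR, in cells where Pparg RNA had fallen. With 5-ASA, Angptl4 moved that way, Plin2 and Cpt1a moved the other way, and Pdk4 did not pass the test. Relative to Ad-Control, treated cells still had more of all 4 targets, with log2 fold changes of 1.29 for Angptl4, 1.22 for Plin2, 1.09 for Pdk4 and 0.58 for Cpt1a, and 4 of the 9 genes rose, 2 fell and 3 did not pass the test. In that comparison 63.2% of all genes passed it, 31.4% upward and 31.8% downward, and the cultures did not overlap for 6 of the 9 genes, as for 66.6% of all genes. On the TPM scale Pdk4 was lower in that comparison, at 0.67 and 0.48 with pseudocounts of 0.1 and 1 (limma, adjusted p = 0.0442 and 0.0448).

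**Figure D3:**
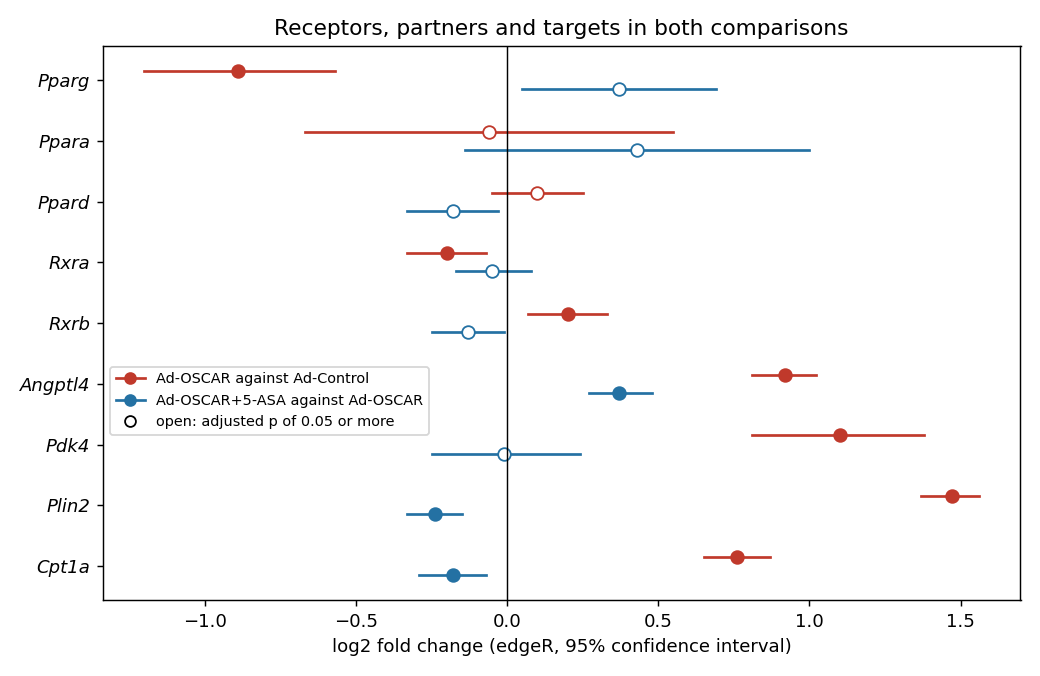
Log2 fold change of the 9 genes with its 95% confidence interval, for Ad-OSCAR against Ad-Control and for Ad-OSCAR+5-ASA against Ad-OSCAR. Filled points passed the test. The 4 targets lie between 0.76 and 1.47 with OSCAR and between -0.24 and 0.37 with 5-ASA.

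Coregulators are the proteins through which these receptors switch genes on or off. Of 15 coregulator genes, 5 rose and 4 fell with OSCAR, with a median log2 fold change of 0.02, and 1 rose and 0 fell with 5-ASA (edgeR; 1 fell at an unadjusted p below 0.05, and 0 by DESeq2). For all genes the shares were 32.7% up and 32.2% down with OSCAR, and 10.4% up and 7.38% down with 5-ASA. Ppargc1a, the PGC-1α coactivator of mitochondrial and oxidative genes, rose from 1.48 to 3.95 CPM with OSCAR (log2 1.39, SE 0.20, adjusted p = 7.37e-06). Ep300, a histone acetyltransferase, rose by 0.39, while Ncoa3, a steroid receptor coactivator, and Tbl1xr1, a part of the NCoR corepressor complex, fell by 0.52 and 0.67. Ncoa3 overlaps Sulf2 and Ep300 overlaps the miRNA gene Gm23880 within exons. Tbl1xr1 was the coregulator that rose with 5-ASA, by 0.22 (adjusted p = 0.00279), and 2 coregulators rose without Ad-OSCAR replicate 1, without treated replicate 2 or 3, or with the replicate number as a block.

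Of 9 other receptors that pair with RXR or belong to it, 7 were tested. With OSCAR 2 rose and 3 fell, and with 5-ASA 0 were called by edgeR or DESeq2, where 1 fell at an unadjusted p below 0.05 and 1 was called down without treated replicate 2, without a filter on low counts or with at least 10 counts required in every culture. Among all genes, 32.7% rose and 32.2% fell with OSCAR, and 10.4% rose and 7.38% fell with 5-ASA. Thrb, a thyroid hormone receptor, rose by 1.23 with OSCAR, and Nr1h2, which encodes the oxysterol receptor LXRβ, by 0.27. The vitamin D receptor gene Vdr fell by 0.86 with OSCAR and the retinoic acid receptor gene Rarg by 0.52.

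Of 18 genes known as PPARγ targets in fat cells, 12 were tested, and those left out included the fat cell markers Adipoq, Cidec and Plin1. With OSCAR 7 rose and 5 fell (median 1.01, against 0.02 over all genes), and with 5-ASA 1 rose and 2 fell (median -0.10, against 0.00). Over all genes, 65.0% passed the test with OSCAR and 17.8% with 5-ASA. Mgst1, a microsomal glutathione transferase, rose by 1.59 and Slc27a1, a fatty acid transporter, by 1.52 with OSCAR, while Plin4, a droplet coat protein, fell by 1.59 and Gpd1, which makes glycerol phosphate for triglycerides, by 0.91. Plin4 overlaps Hdgfl2 and Gpd1 overlaps Gm16537.

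With 5-ASA Acsl1, which activates fatty acids with coenzyme A, rose by 0.36 (47.3 to 60.8 CPM, adjusted p = 4.17e-05), and Slc27a1 and the adipogenic factor gene Cebpa fell by 0.41 and 0.40 (adjusted p = 0.000148 and 0.00386). Acsl1 overlaps Gm45244 and Cebpa overlaps Gm45091. Fabp4 and Cd36, the standard PPARγ readouts in fat cells and macrophages, are named after their values were seen. Fabp4, a fatty acid carrier, rose from 12.5 to 29.9 CPM with OSCAR (log2 1.25, adjusted p = 7.92e-10) and stood at 28.6 CPM with 5-ASA (log2 -0.06, adjusted p = 0.669). Cd36, a fatty acid receptor, had 1 to 5 counts per Ad-Control culture, 33 to 37 per Ad-OSCAR culture and 26 to 31 per treated culture, with a log2 fold change of -0.25 with 5-ASA (adjusted p = 0.589).

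Of 30 fatty acid oxidation genes other than Cpt1a, 28 were tested. With OSCAR 11 rose and 8 fell with a median of 0.01. That is near the shares of all genes, 32.7% upward and 32.2% downward with a median of 0.02. The other 2 carnitine palmitoyltransferase 1 genes rose with OSCAR as Cpt1a did, Cpt1c by 1.23 (48.8 to 114 CPM) and Cpt1b by 0.94 (2.60 to 4.92 CPM). The next steps of mitochondrial import rose less, with Cpt2 at 0.41 and the carnitine carrier gene Slc25a20 at 0.58, both named after their values were seen. Cpt2 and Slc25a20 do not stand for the list, where 8 genes fell and where Hadh, for example, went from 59.9 to 43.4 CPM. Ucp2, which encodes a mitochondrial carrier, fell by 1.35 and Acot1, an acyl-CoA thioesterase, by 0.91. Cpt1c overlaps 6530437J22Rik, Cpt1b overlaps Gm44502, and Ucp2 overlaps Dnajb13, and reads of Acot1 may be shared with its close relatives.

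With 5-ASA 2 oxidation genes rose and 1 fell (median 0.02), and 1 rose where at least 10 counts were required in every culture. Among all genes, 10.4% rose and 7.38% fell with 5-ASA. Ucp2 rose by 0.65 and Cpt1c fell by 0.28 (adjusted p = 0.00787 and 0.00127). The other gene that rose was Fgf21, a PPARα-driven hormone gene, which is named here for its part in the count. It had 29 to 46 counts per Ad-Control culture, 2 to 6 per Ad-OSCAR culture and 17 to 25 per treated culture. Fgf21 thus fell with OSCAR (adjusted p = 1.49e-07) and rose with 5-ASA (adjusted p = 0.000297), the reverse of Cpt1a at both steps.

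Among 16 genes of lipid droplets beside Plin2, 12 were tested, and 7 rose and 4 fell with OSCAR (median 0.49). The shares of all genes were 32.7% up and 32.2% down with OSCAR. Dgat2, which makes triglyceride, rose by 1.52 (42.7 to 123 CPM) and Pnpla2, the lipase that opens its breakdown, by 1.27, while G0s2, an inhibitor of that lipase, fell by 2.57 (7.63 to 1.29 CPM). With 5-ASA 2 rose and 1 fell, but 1 rose without Ad-OSCAR replicate 1 or 3 or treated replicate 3, and 0 fell without treated replicate 1. The shares of all genes were 10.4% up and 7.38% down with 5-ASA. G0s2 rose from 1.29 to 3.15 CPM (adjusted p = 1.43e-05), Mgll, a monoglyceride lipase, rose by 0.20, and Abhd5, an activator of Pnpla2, fell by 0.21 (adjusted p = 0.0121 and 0.0091). Mgll overlaps Gm26588 and Abhd5 overlaps A730085K08Rik.

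Of 15 genes of fatty acid uptake and binding, 14 were tested, and 6 rose and 8 fell with OSCAR (median -0.28). Over all genes, 32.7% rose and 32.2% fell with OSCAR. Fabp7, a fatty acid carrier best known from brain, rose by 2.52 (2.91 to 16.7 CPM), while Slc27a3, a fatty acid transport protein, fell by 1.19 and Fabp5, a carrier that hands ligands to PPARδ, by 0.92. With 5-ASA 3 rose and 2 fell, against 10.4% and 7.38% of all genes. Acsl3, which activates fatty acids at droplets and overlaps Utp14b, rose by 0.34, and Fabp5 fell by a further 0.28 (adjusted p = 0.00823 and 0.0089).

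Of 10 genes for the other pyruvate dehydrogenase kinases, the phosphatases and the enzyme's subunits, 4 rose and 5 fell with OSCAR, and 5 rose and 0 fell with 5-ASA (edgeR; 1 fell at an unadjusted p below 0.05, and 0 by DESeq2). Among all genes, 32.7% rose and 32.2% fell with OSCAR, and 10.4% rose and 7.38% fell with 5-ASA. Pdk1, a kinase of the same family as Pdk4, fell from 170 to 78.2 CPM with OSCAR (log2 -1.12, adjusted p = 6.48e-12) and rose to 103 CPM with 5-ASA (log2 0.39, adjusted p = 0.000105). Pdp1, a phosphatase that reverses the kinases, fell by 1.15 with OSCAR, and the subunit genes Dlat and Pdhx rose by 0.38 and 0.35. Pdk3 rose by 0.34 with 5-ASA (adjusted p = 0.00366). The count of 5 rested in part on 1 culture, since 3 rose and 1 fell without the second treated culture.

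**Figure D4:**
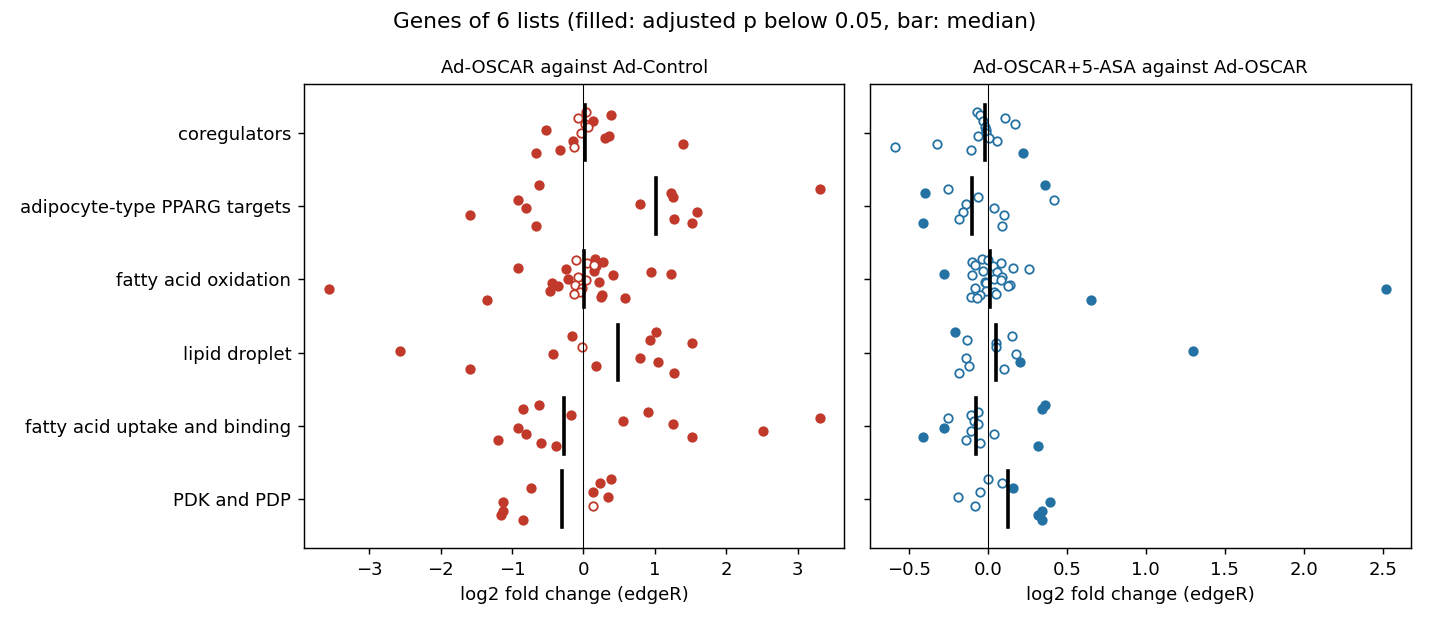
Log2 fold change of the tested genes of 6 lists, with OSCAR on the left and with 5-ASA on the right, whose axis spans a smaller range. Filled points passed the test and black bars are medians, which with OSCAR run from -0.30 for the pyruvate dehydrogenase genes to 1.01 for the fat cell targets and with 5-ASA from -0.10 to 0.12.

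Of 6 other angiopoietin-like genes, relatives of Angptl4 that all encode secreted proteins, 4 were tested. With OSCAR 0 of these rose (edgeR, also at an unadjusted p below 0.05, and DESeq2) and 3 fell. Over all genes 32.7% rose and 32.2% fell with OSCAR, and 4 genes are too few to be told apart from these shares. Angptl1 fell by 2.11 and Angptl6 by 1.11 with OSCAR. With 5-ASA Angptl7 rose from 268 to 399 CPM (log2 0.58, adjusted p = 6.43e-07), Angptl6 rose by 1.00 and Angptl2 fell by 0.31 (adjusted p = 0.000319 and 0.000436). Angptl6 overlaps A230050P20Rik and Angptl1 overlaps Gm37802.

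The genes whose log2 CPM followed Pparg most closely over the 9 cultures were Pecr, a peroxisomal enoyl-CoA reductase gene (Pearson r = 0.984), Tmem107 (r = 0.980) and Snap47 (r = 0.975). Those closest to Angptl4 were Il4ra, an interleukin receptor gene (r = 0.998), Col3a1, a fibrillar collagen gene (r = 0.998), and C2, a complement gene (r = 0.996). Col3a1 went from 4253 to 7009 and 8637 CPM over the 3 groups. These cultures form 3 groups that set most of the variation, and of 13266 genes 92 had r above 0.95 with Pparg and 654 with Angptl4, so the likeness is a description of the pattern.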

How the data were processed

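The authors sequenced stranded mRNA libraries of 9 cultures (2 × 100 bases), removed adapters with BBDuk, mapped to GRCm38 with STAR 2.7.1a and quantified genes with RSEM 1.3.1. The authors deposited expected counts (estimated counts that need not be whole), TPM and transcript lengths per gene. Their strand setting is not given in the sources used here, so genes with overlapping exons are named with the partner, those of markers here. Prg4 overlaps Tpr, Fn1 overlaps Apol7d, Col3a1 overlaps Gm47302, Itgam overlaps Gm49368 and Acp5 overlaps 6530413G14Rik. Overlaps were not looked up for Pecr, Tmem107, Snap47, Il4ra and C2. Of 55471 identifiers, 55230 matched GENCODE M21 without version.

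Expected counts were rounded. Totals were 19733448 to 28192740 per culture, with medians of 22276105, 26160383 and 26138694 for Ad-Control, Ad-OSCAR and Ad-OSCAR+5-ASA. Counting error is the lower limit of the error at any level. No pair of replicates held the same counts. edgeR 4.0.16 in R 4.3.3 was run with TMM, filterByExpr and the quasi-likelihood F test, in a single fit of 9 cultures, with Benjamini-Hochberg adjustment over 15362 genes and a threshold of 0.05. The SE is the log2 fold change over the root of F. CPM use the TMM-scaled library. On simulated counts for Ad-OSCAR against Ad-Control, over 15134 genes, 96% of changes of 1 and 94% of changes of 0.6 (log2) were recovered, with 12 of 14934 unchanged genes called.

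The members and gene lists were chosen with earlier results of these data known. Named are the 9 members, from each further list up to 2 genes called in each direction with the largest change and a mean of at least 1 CPM, and the 3 genes most like Pparg and Angptl4. Deviations of same-numbered cultures correlated between -0.0724 and 0.0402, so the numbers were not taken as pairs. The alternatives were DESeq2 1.42.0, RLE normalization, other filters, a block for the replicate number, a fit of the compared groups alone, limma 3.58.1 on log2(TPM + 0.1 or 1), and each culture left out in turn. Promoters are from RefSeq.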

Additional observations from a re-analysis of the deposited data

How the results depend on the processing

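The direction of Pparg with OSCAR and its call were kept in 17 of 17 alternatives, at -0.97 to -0.60 on the log2 scale, and with 5-ASA Pparg was called in 0 of 17, at 0.12 to 0.47 (adjusted p = 0.0617 to 0.555). The count of members called down with OSCAR, 2, was 1 on the TPM scale with pseudocounts of 0.1 and 1, where Rxra was not called. The count called down with 5-ASA, 2, ranged from 1 to 3 as each culture was left out: Cpt1a lost its call without Ad-OSCAR replicate 3 or treated replicate 1 or 2, and Ppard gained a call without treated replicate 3. The sign turned, with no call, for Ppara with OSCAR (-0.32 to 0.17 as each culture was left out, with 0.05 without Ad-Control replicate 2, 0.17 without Ad-OSCAR replicate 3), Rxra with 5-ASA (-0.11 to 0.02, the latter without treated replicate 2), Pdk4 with 5-ASA (0.00 and 0.06 without Ad-OSCAR replicates 1 and 3, 0.01 without treated replicate 2) and Ppard in treated against Ad-Control cells (-0.15 to 0.02, the latter without treated replicate 2). Calls were gained for Ppard with 5-ASA without a filter on low counts (adjusted p = 0.0155) and for Rxrb in treated against Ad-Control cells without treated replicate 2 (0.0355). Apart from leaving out a culture, the causes were not tested. Over all genes, 5-ASA gave 1598 genes up and 1134 down, but 560 up and 1439 down, or 562 up and 1487 down, on the TPM scale with pseudocounts of 0.1 and 1, where the median gene lay at -0.097 and -0.080. The genes called down were 736 without Ad-OSCAR replicate 1 and 721 without treated replicate 1. With the replicate number as a block, Pparg was at -0.89 with OSCAR (adjusted p = 0.000133) and 0.37 with 5-ASA (adjusted p = 0.134), no call of a member changed, and 1483 genes rose and 1017 fell with 5-ASA. Pparg, Ppara and Pdk4 have few counts, which limits what could be detected for them.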

Other observations

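Of 10 genes known to respond to low oxygen, as Angptl4 also is, 4 rose and 5 fell with OSCAR. With 5-ASA 4 of these 10 rose and 1 fell. The shares of all genes were 32.7% up and 32.2% down with OSCAR, and 10.4% up and 7.38% down with 5-ASA. With OSCAR Egln3, an oxygen-sensing hydroxylase gene, rose by 0.69 and Vegfa, an angiogenic factor gene, by 0.67, while Ndrg1, a stress-response gene, fell by 1.69 and Pgk1, a glycolytic enzyme gene, by 1.08. With 5-ASA Vegfa rose from 334 to 408 CPM (log2 0.29, adjusted p = 0.000293) and Ndrg1 from 73.3 to 102 CPM (log2 0.48, adjusted p = 4.3e-06), and Car9, a carbonic anhydrase gene, fell from 148 to 102 CPM (log2 -0.53, adjusted p = 2.28e-06). Ndrg1 overlaps Gm17035 and Car9 overlaps Gm12454.

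Of 10 genes known to respond to glucocorticoids, as Pdk4 also is, 4 rose and 5 fell with OSCAR, and 1 rose and 0 fell with 5-ASA (edgeR; 0 fell at an unadjusted p below 0.05 and by DESeq2). Without a filter on low counts or without Ad-Control replicate 3, 2 rose with 5-ASA. For all genes the shares were 32.7% up and 32.2% down with OSCAR, and 10.4% up and 7.38% down with 5-ASA. Errfi1, an inhibitor of the EGF receptor, rose by 1.46 and Mt2, a metallothionein gene, by 1.17 with OSCAR, while Cdkn1c, a cell cycle inhibitor gene, fell by 2.79 and Fkbp5, a co-chaperone of the glucocorticoid receptor, by 1.04. Tsc22d3, which encodes the glucocorticoid-induced leucine zipper protein, was the gene that rose with 5-ASA, from 18.8 to 30.7 CPM (log2 0.71, SE 0.07, adjusted p = 6.09e-07). Mt2 overlaps Gm45774 and Cdkn1c overlaps Gm44732.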
